A study of Homo sapiens with 29 samples.

Results

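In vehicle-treated 22Rv1 cells, 127 stretches of the genome held 10 or more accessible regions in close succession. In the engineered lines these dense chains kept a larger share of their peaks than the other accessible regions did. The share rose there with the number of regions in a chain, and the limit of 10 marked no step. 22Rv1 is a human prostate cancer cell line. Accessibility was measured by ATAC-seq, which sequences the DNA fragments that a transposase frees from open chromatin. Peaks of the 3 parental DMSO libraries were merged into 110981 regions, of which 72530 were held by all 3. Regions at most 12.5 kb apart were chained, and the members were the 1565 regions (2.16% of 72530) in chains of at least 10. A library held a region when 1 of its peaks overlapped it by at least 1 bp.

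Enhancers are stretches of open chromatin where transcription factors gather to raise the expression of a gene. Enhancers that lie close together are often stitched into 1 unit with a gap limit of this kind, and the units with the most bound factor or acetylated histone are called super-enhancers. Open regions also lie thickly where genes and their promoters are crowded. FOXA1 is a pioneer factor, able to bind DNA that is still wrapped on nucleosomes, and it opens enhancers used by the androgen receptor in prostate cells. No histone mark, factor binding or hg19 gene annotation was used here, so the stretches are called dense chains and not enhancers.

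The parental cells gave 5 groups of 3 libraries: DMSO at 0.1%, the stereoisomers WX-02-23 and WX-02-43 at 20 µM each, and PladB (pladienolide B, which binds SF3B1 of the spliceosome) at 10 nM and at 100 nM. The engineered cells gave 7 groups of 2 libraries, all with overexpressed Y36C-PHF5A, a mutant spliceosome subunit, and with a doxycycline (Dox)-inducible FOXA1 that was either WT-FOXA1 or C258A-FOXA1, in which the cysteine that WX-02-23 engages is replaced. With Dox, either line received DMSO, 20 µM WX-02-23 or 100 nM PladB. A further WT-FOXA1 group received DMSO but no Dox. Treatments lasted 3 h. The labels name no step that removes the cells' own FOXA1, so the induced protein is taken to come on top of it, which was not tested. The labels do not say whether the lines are clones. Nor do they say that replicate libraries came from separate cultures, so the spread between replicates may be technical.

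Lists held 62832 to 98193 peaks, parental ones 82538 to 98193 and engineered ones 62832 to 92658. The sources used here give no read totals, so list length is the only guide to depth. A treatment that opened or closed many regions would also change list length, and here these cannot be told apart. Cutting lists to equal length, as done below, takes out a difference in peak number from either source. The cut ranks peaks by p-value within a list, so a region also drops out where enough other peaks rank above it. A region that lacks a peak may be open at a level too low to be called. The peak names put the 15 parental lists in 1 processing folder and the 14 engineered lists in another, so the effect of the engineered alleles and that of the processing cannot be told apart.

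The chains were short against a chromosome and mostly made of many small regions. A chain spanned 22308 to 116585 bp, with a median of 57180 bp, and held 10 to 25 regions, with a median of 11. All 127 together spanned 7639 kb, of which 866 kb (11.3%) lay in the regions themselves. Neighbouring regions of a chain were a median of 4390 bp apart, and the widest gap was 12454 bp. Most chains were close to the limit: 87 of 127 held 10 to 12 regions, and 5 held 20 or more. Just outside the limit were 73 chains of 9 regions, with a median span of 45204 bp, and just inside it 40 chains of 10, with a median span of 50434 bp.

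The chain with the most regions held 25 of them at chr16:685566-802150. It was followed by chr16:3139514-3241640 with 24 regions, chr9:140044235-140150117 with 22, and chr17:8055616-8130405 and chr19:49559192-49668973 with 21 each. All positions are in build hg19, counted from 1. Chains were unevenly spread over the chromosomes. Chromosome 19 held 27 of the 127 chains and 338 of the 1565 member regions. These were 21.6% of all members, whereas the chromosome held 4.21% of the 72530 regions. Chromosome 17 held 16 chains, chromosome 1 held 14, chromosomes 11 and 12 held 11 each, and chromosome 16 held 9. No chain lay on chromosomes 3, 13, 18, 21 or Y. On chromosome 19 and chromosome 17 the members made up 11.1% and 6.04% of the chromosome's own regions, against 2.19% on chromosome 1, which had the most regions of all.

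**Figure D1:**
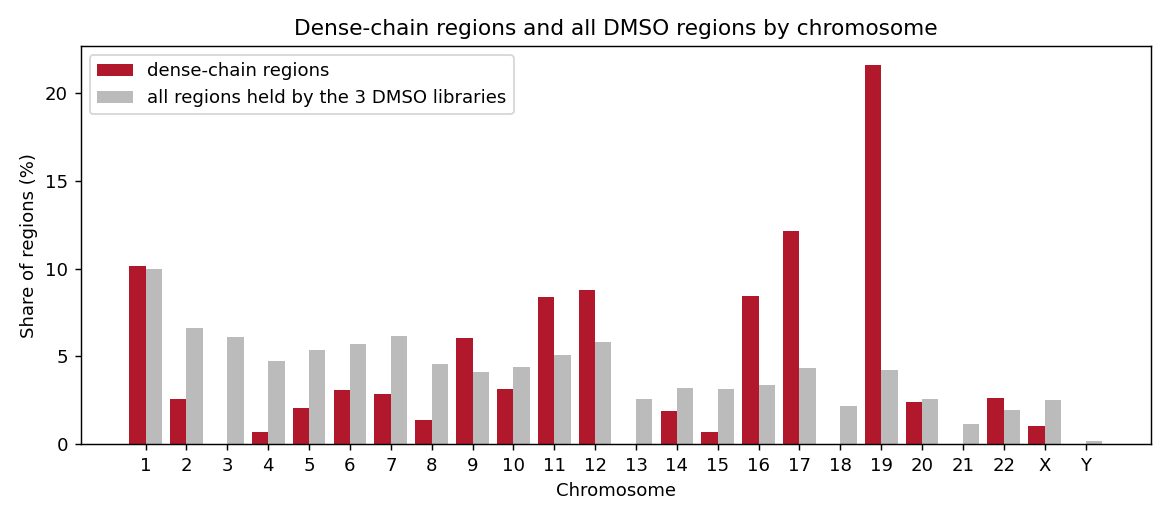
Share of the dense-chain regions (red bars) and of all regions held by the 3 parental DMSO libraries (grey bars) on each chromosome, in percent of all regions of that kind. The red bar of chromosome 19 reaches 21.6% and its grey bar 4.21%, and 5 chromosomes have no red bar.

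Membership of a chain did not mean wide or high peaks. Member regions had a median width of 476 bp and the other regions 468 bp, and 8.88% of members against 9.21% of the others were at least 1 kb wide. The authors' p-value placed the median member at the 63.3th percentile of its DMSO list and the median other region at the 59.8th. The authors' fold enrichment over the local background went the other way, with a median of 6.23 for members and 8.42 for the others. Since the DMSO lists chose the members, these values are a description and were not tested.

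In parental cells the members were held about as often as the other regions after each treatment. The 3 WX-02-23 libraries held 96.2%, 94.0% and 95.6% of the members, a mean of 95.3% ± 1.15 (SD, n = 3), and 94.0% ± 0.88 (SD, n = 3) of the other regions. WX-02-43 libraries held 97.0%, 98.7% and 94.5% of the members, a mean of 96.7% ± 2.12 (SD, n = 3), and 95.4% ± 2.65 (SD, n = 3) of the others. The ranges of the stereoisomers overlapped. With PladB at 10 nM the libraries held 97.1%, 94.8% and 92.9% of the members, a mean of 94.9% ± 2.08 (SD, n = 3). With PladB at 100 nM they held 92.3%, 91.4% and 89.5%, a mean of 91.1% ± 1.44 (SD, n = 3). All 3 of these were below every library at 10 nM. DMSO held 100% by the rule, so a value under 100% cannot be read as a loss caused by a treatment.

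The 2 stereoprobes, WX-02-23 and WX-02-43, share their composition and differ in the arrangement of atoms in space. Between them the share of members held differed by -1.47 percentage points (WX-02-23 minus WX-02-43, SE 1.39), and single pairs of libraries differed by -4.73 to 1.73 points. The exact two-sided permutation p was 0.4, and 0.56 after Benjamini-Hochberg adjustment over 7 contrasts. The smallest p that 3 against 3 libraries allow is 0.1, so this does not show that the isomers act alike. Members and other regions differed by nearly the same amount between the isomers, with -0.0896 points between the differences (exact permutation p = 0.9). PladB at 100 nM against 10 nM gave -3.81 points (SE 1.46). The exact permutation p, two-sided, was 0.1 and the adjusted p 0.56. Lists cut to the same length, that of the shortest list, by the authors' p-value gave -0.852 points for the PladB doses. The 100 nM lists were shorter, with 82538 to 87426 peaks against 88818 to 98083 at 10 nM.

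In the engineered lines the members stood apart from the other regions in every library. In the WT-FOXA1 line with Dox, the DMSO libraries held 90.0% and 89.3% of the members, a mean of 89.6% ± 0.54 (SD, n = 2), and 81.0% (SD 1.53) of the other regions. The WX-02-23 libraries of that line held 79.1% and 78.1% of the members, and a mean of 65.2% (SD 2.75, n = 2) of the others. PladB libraries held 84.5% and 90.1%, and DMSO libraries without Dox 89.4% and 88.2%. In the C258A-FOXA1 line the DMSO libraries held 87.2% and 87.6%, the WX-02-23 libraries 80.3% and 87.1%, and the PladB libraries 83.2% and 83.0%. The WX-02-23 libraries of WT-FOXA1 cells were the lowest pair and the C258A-FOXA1 pair the most spread.

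**Figure D2:**
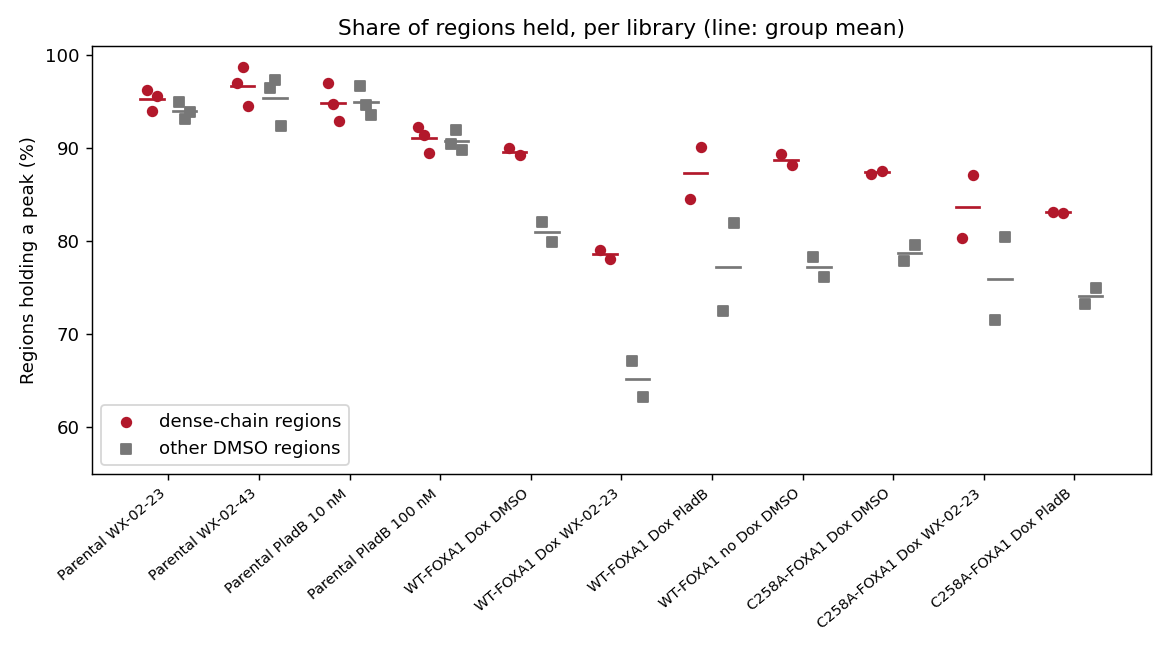
Share of dense-chain regions (red circles) and of the other regions of the 3 parental DMSO libraries (grey squares) that held a peak, in percent, for each library of the 11 other groups; lines are group means and the axis starts above 0. Red and grey overlap in the 4 parental groups, and in the 7 engineered groups each mean of the red points lies above that of the grey points, although with WX-02-23 in C258A-FOXA1 cells the lower red point (80.3%) is just below the higher grey one (80.5%), which is another library.

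The difference between members and other regions was tested over the libraries that the rule did not use. In the 14 engineered libraries the members exceeded the other regions by 9.87 ± 2.25 points (SD, n = 14). The difference was above 0 in 14 of 14 libraries, with a two-sided sign-flip permutation p of 0.00012, the smallest that 14 libraries can give, and 0.00024 after adjustment over 2 such tests. Within 4 classes of equal strength in the DMSO lists, where strong members were compared with strong other regions and weak with weak, the excess was 7.12 points. In the 12 parental libraries other than DMSO the mean excess was 0.717 ± 0.942 points (SD, n = 12), above 0 in 9 of 12, with a sign-flip permutation p of 0.0264. That parental result passed the threshold of 0.05 narrowly. It missed it without any one of 5 of the libraries (WX-02-23 replicates 1 and 3, WX-02-43 replicates 2 and 3, and PladB 100 nM replicate 1; permutation p 0.0508 to 0.0527), and within the 4 classes of DMSO strength it changed sign to -0.542 points (sign-flip permutation p = 0.121). All libraries were scored on the same regions, so these p-values cover the spread between libraries and not a new choice of regions. The sign flips also treated each library as independent. The 14 engineered libraries were 7 groups of 2 from 2 lines, and the 12 parental ones 4 groups of 3. Replicates may be technical, and all lists of a background share 1 processing folder, so the p-values may be too small.

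Over 4 classes of chain size, the share of regions held rose in each engineered group. In the WX-02-23 libraries of WT-FOXA1 cells it was 62.5% for regions with no neighbour, 66.0% in chains of 2 to 4, 72.0% in chains of 5 to 9 and 78.6% in the dense chains. Without Dox it went from 74.2% through 78.3% and 84.0% to 88.8%, and in C258A-FOXA1 cells with DMSO from 77.0% to 87.4%. The limit of 10 regions marked no step. Chains of 9 regions were held at 89.6% with DMSO and Dox in the WT-FOXA1 line and at 89.0% without Dox, near the 89.6% and 88.8% of the dense chains. From chains of 9 to chains of 10 the share was lower in each engineered group, for example 89.6% and 88.9% with DMSO and Dox. In parental cells with PladB at 100 nM the share stayed between 90.6% and 91.5% over the same 4 classes. From single regions to dense chains it went from 95.0% to 96.7% with WX-02-43 and from 93.6% to 95.3% with WX-02-23. With PladB at 10 nM it went from 95.0% to 94.9%. The median strength in the DMSO lists also rose, from the 59.5th percentile for single regions to the 63.3th in the dense chains. The excess within classes of strength is given above.

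**Figure D3:**
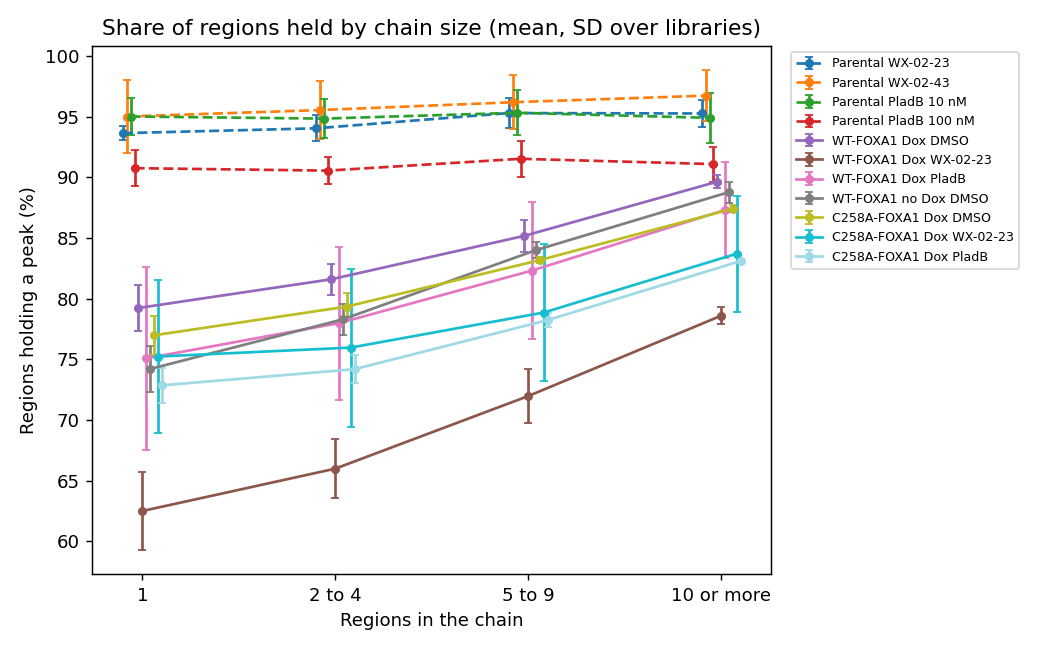
Share of regions that held a peak, in percent, against the number of regions in the chain, for the 11 groups other than parental DMSO; points are means over libraries, bars are SD, dashed lines are parental groups and the axis starts above 0. The engineered lines rise from left to right, the WX-02-23 group of the WT-FOXA1 line from 62.5% to 78.6%, while the parental lines are nearly level.

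With the lists as deposited, WX-02-23 in the WT-FOXA1 line gave the largest change of the 7 contrasts, whereas with lists of equal length the Dox contrast was larger. The share of members held fell by 11.05 points against DMSO (SE 0.639), and single pairs of libraries differed by -11.9 to -10.2 points. The exact two-sided permutation p was 0.33, the smallest that 2 against 2 libraries allow, and the adjusted p was 0.56, so no contrast of this size can pass a threshold of 0.05. The WX-02-23 lists were also the shortest, with 67815 and 62832 peaks against 88140 and 85009 with DMSO. With all lists cut to 62832 peaks the fall was 2.91 points. Such a cut takes out a difference in peak number whether it came from depth or from the treatment. Members lost less than the other regions: the excess of members over other regions rose from 8.64 points with DMSO to 13.4 points with WX-02-23, a difference of 4.77 points (SE 1.59, exact permutation p = 0.33), or 1.78 points with lists of equal length.

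The WX-02-23 change in C258A-FOXA1 cells was -3.71 points (SE 3.39), and it rested on unlike libraries. It came to -7.09 points without WX-02-23 replicate 2 and to -0.319 points without replicate 1, and these lists held 92658 and 76645 peaks. The difference between the lines, tested directly, was -7.35 points (SE 3.45), with an exact permutation p of 0.0556 over 36 arrangements, the smallest they allow, and 0.111 after adjustment over 2 such tests. It was -10.7 points without C258A-FOXA1 WX-02-23 replicate 1 and -3.96 points without replicate 2. With lists of equal length that difference was -0.351 points (exact permutation p = 0.944). Relative to the other regions the difference between the lines was 5.67 points (SE 2.04, exact permutation p = 0.222).

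PladB and Dox were compared in the same way, and contrasts were not tested against each other. PladB changed the share by -2.33 points in the WT-FOXA1 line (SE 2.81, exact permutation p = 1), and by 1.15 points with lists of equal length. It changed it by -4.31 points in the C258A-FOXA1 line (SE 0.214, exact permutation p = 0.33), and by -0.831 points with lists of equal length. DMSO with Dox against DMSO without Dox in the WT-FOXA1 line gave 0.863 points (SE 0.718, exact permutation p = 0.667). With lists of equal length the Dox difference changed sign to -5.65 points, the lists with Dox being longer (85009 and 88140 peaks) than those without (67195 and 69814). Relative to the other regions, the Dox difference was -2.93 points: the excess over the other regions was 11.6 ± 0.62 points without Dox and 8.64 ± 0.98 points with it (SD, n = 2 each, exact permutation p = 0.33). With lists of equal length this Dox difference relative to the other regions was -0.753 points, so most of the -5.65 points was shared by the other regions.

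Most member regions were held throughout the study. Of the 1565 members, 1032 (65.9%) had a peak in all 29 libraries, where 50.1% of all 72530 regions did. All 15 parental libraries held 1257 members (80.3%, against 76.3% of all regions). All 14 engineered libraries held 1080 members (69.0%, against 51.3% of all regions), and none of them held 59 (3.77%, against 5.78%). Of the latter, 19 (1.21% of members, against 1.44% of all regions) had a peak in every parental library. In the WT-FOXA1 line with Dox, 94 members (6.01%) in 67 chains had a peak in both DMSO libraries and in neither WX-02-23 library, where 8.57% of all regions did. The reverse was seen in 0 members, against 0.298% of all regions. This count of 94 was 157 without WX-02-23 replicate 1 (10.0% of members, against 14.9% of all regions), 142 without replicate 2 (9.07%, against 12%) and 40 with lists of equal length (2.56%, against 3.53%). The 94 members had a median DMSO strength at the 39.3th percentile. In C258A-FOXA1 cells 55.9% of them (mean of 2 libraries) had a peak with WX-02-23 and 77.1% with DMSO. Of the 6125 other regions lost by the same rule, 57.5% and 73.0% did, so the members were near them.

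In the C258A-FOXA1 line 23 members (1.47%) had a peak with DMSO in both libraries and in neither WX-02-23 library, near the 1.86% of all regions. Leaving out 1 library gave 32 (2.04%, against 2.77% of all regions) to 97 (6.20%, against 7.42%), the highest without WX-02-23 replicate 2. The reverse was seen in 2 (0.128%), against 1.01%. The number lost in both lines was 6 (0.383%), against 0.63% of all regions. Members present in both DMSO libraries with Dox and in neither without Dox numbered 15 (0.958%), against 3.0% of all regions, and 24 (1.53%, against 4.5%) to 49 (3.13%, against 6.15%) when any one of the 4 libraries was left out. The reverse was seen in 9 (0.575%), against 0.856%. In parental cells, 14 members (0.895%) were absent from all 3 WX-02-23 libraries and present in all 3 WX-02-43 libraries, which was close to the 0.877% of all regions. That count was 25 without WX-02-23 replicate 1 (1.60%, against 1.45% of all regions). In these parental cells PladB at 100 nM against 10 nM gave 9 lost members (0.575%), against 0.58% of all regions. The reverse was 1 member in each of these 2 contrasts, against 0.119% and 0.0317% of all regions. With PladB 9 members (0.575%, against 1.57% of all regions) were lost and 4 (0.256%, against 0.484%) gained in the WT-FOXA1 line, and 26 (1.66%, against 2.16%) lost and 2 (0.128%, against 0.491%) gained in the C258A-FOXA1 line.

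Within a chain, regions weak in the DMSO lists were held least often elsewhere. When the regions of each chain were ranked by their strength in the DMSO lists and split into 3 classes, the strongest class was held at 97.6% to 100% in each group. The weakest class was held at 91.4% ± 5.63 (SD, n = 3) with WX-02-43 in parental cells, 76.5% ± 1.23 (SD, n = 2) with DMSO and Dox in WT-FOXA1 cells and 54.6% ± 2.09 (SD, n = 2) with WX-02-23 there. In the middle class the last 2 values were 95.6% and 87.8%. A weak peak lies near the calling limit, and the part of that limit in this order was not tested. By place in the chain the shares lay closer together: the 254 outermost regions and the 1311 inner ones were held at 79.5% and 78.4% with WX-02-23 in the WT-FOXA1 line.

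**Figure D4:**
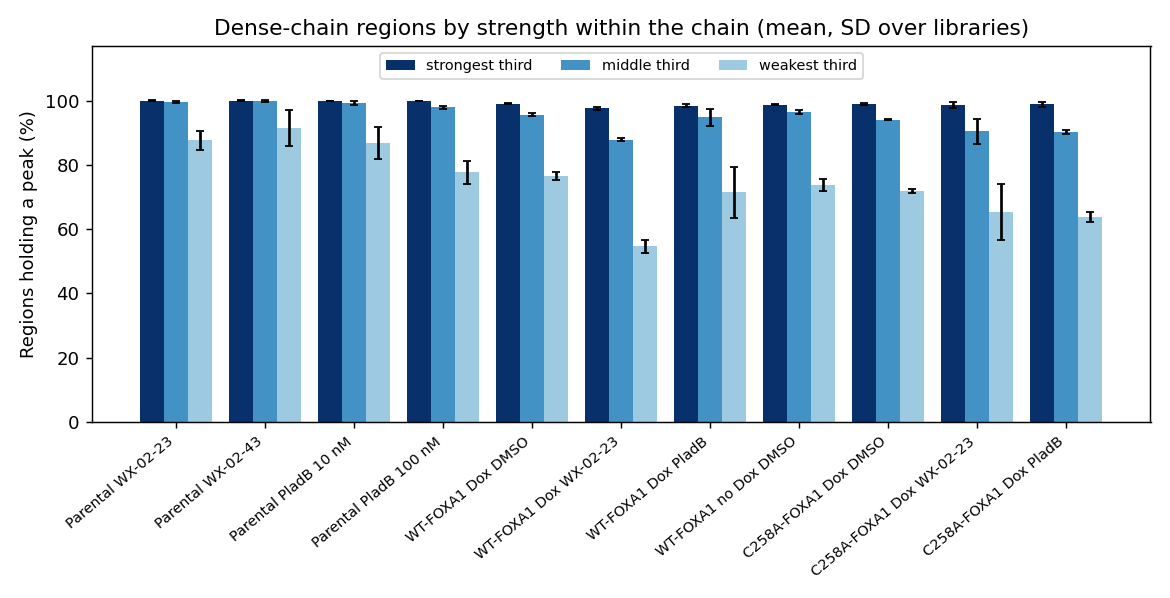
Share of dense-chain regions that held a peak, in percent, for the strongest, middle and weakest of 3 classes in each chain by strength in the parental DMSO lists; bars are means over libraries, whiskers are SD and the axis starts at 0. The dark bars stay at 97.6% or above, and the lightest bar is lowest, at 54.6%, for WX-02-23 in the WT-FOXA1 line.

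Chains differed in how much they kept. The mean share held was lower with WX-02-23 than with DMSO in the WT-FOXA1 line in 109 of 127 chains (85.8%), higher in 2 and equal in 16, with a median change of -10 points. Among all 1453 chains of 5 or more regions, 74.5% were lower and 2.96% were higher, and a longer chain has more regions in which a change can show. In the C258A-FOXA1 line 72 chains were lower and 17 higher, where 46.2% and 14.2% of the 1453 chains were. With PladB the share was lower in 61 chains and higher in 16 in the WT-FOXA1 line (38.0% and 15.1% of the 1453), and in 75 and 17 in the C258A-FOXA1 line (46.7% and 10.3%). With Dox against no Dox 37 chains were lower and 48 higher (22.2% and 31.0%). In parental cells 49 were lower and 32 higher with WX-02-23 than with WX-02-43 (27.2% and 19.8%), and 80 lower and 15 higher with PladB at 100 nM than at 10 nM (48.5% and 10.3%). The numbers of chains held in full were 42 and 43 with DMSO in the WT-FOXA1 line with Dox, 12 and 13 with WX-02-23, 39 and 34 without Dox, and 10 and 31 with WX-02-23 in the C258A-FOXA1 line. Over the 127 chains the WX-02-23 changes of the 2 engineered lines had a Pearson r of 0.307 and a Spearman rho of 0.238. The chain's mean strength in the DMSO lists and its mean share in the engineered libraries had an r of 0.590. Both are descriptions over chains scored in the same libraries.

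**Figure D5:**
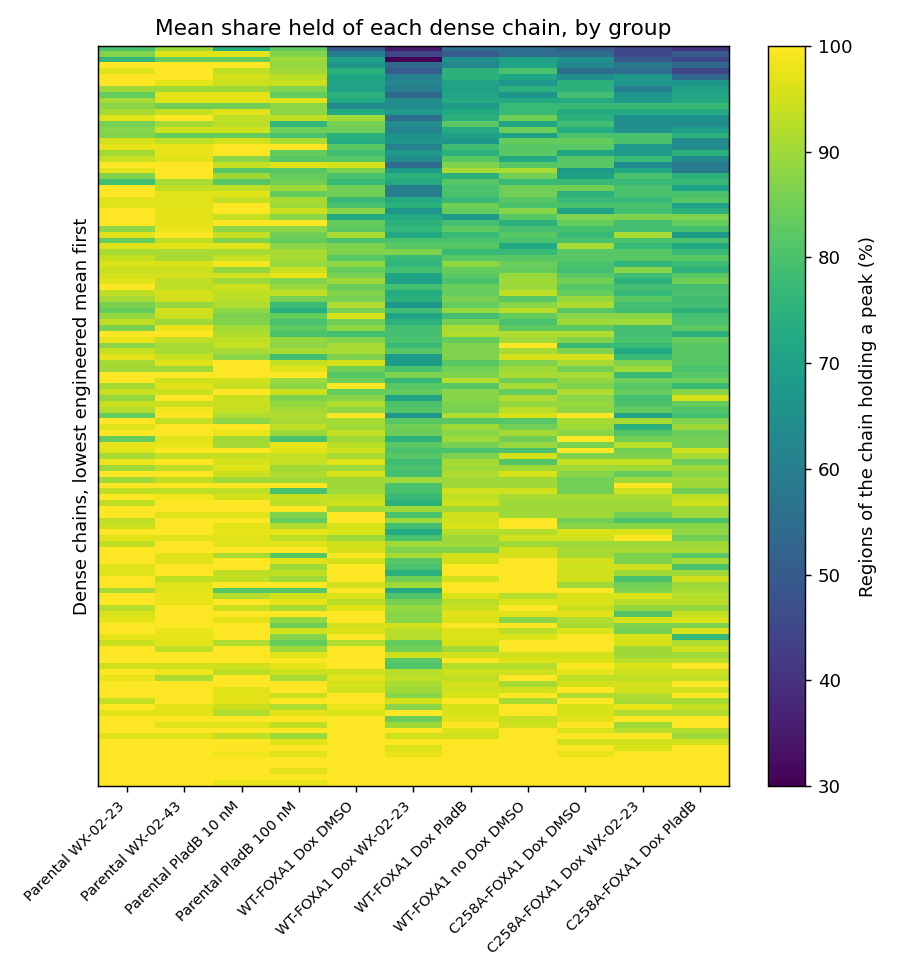
Mean share of each dense chain that held a peak, in percent by colour from 30 to 100, for the 127 chains (rows, ordered by their mean over the engineered libraries) and the 11 groups other than parental DMSO (columns). The rows at the bottom are full in nearly every column, and the column of WX-02-23 in the WT-FOXA1 line is the darkest.

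The largest fall with WX-02-23 in the WT-FOXA1 line was at chr16:30933012-30969466. Of its 11 regions, the DMSO libraries held 10 and 11 and the WX-02-23 libraries 6 and 6. In C258A-FOXA1 cells it held 9 and 9 with DMSO and 7 and 7 with WX-02-23, whereas each parental library with WX-02-23 or WX-02-43 held all 11. It was also among the 5 chains with the largest rise with Dox, as the libraries without Dox held 10 and 8. With PladB the chain held 9 and 10 in the WT-FOXA1 line and 6 and 7 in the C258A-FOXA1 line, the latter no more than with WX-02-23. The second fall was at chr12:678771-752586, a chain of 10 regions, with 7 and 7 held with DMSO and 3 and 3 with WX-02-23. It held 5 and 8 with DMSO in the C258A-FOXA1 line and 5 and 5 with WX-02-23, and it had among the lowest mean shares over all engineered libraries. In parental cells it held 8, 7 and 8 regions with WX-02-23 and 9, 9 and 7 with WX-02-43. With PladB it held 7 and 6 in the WT-FOXA1 line and 5 and 4 in the C258A-FOXA1 line.

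The chain at chr1:33168161-33239298 stood out in both cell backgrounds. Of its 12 regions, parental WX-02-23 libraries held 11, 10 and 9 and WX-02-43 libraries all 12, the largest deficit of WX-02-23 against its isomer among the 127. In the WT-FOXA1 line it held 12 and 12 with DMSO and 9 and 7 with WX-02-23, and in the C258A-FOXA1 line 12 and 12 with DMSO and 7 and 10 with WX-02-23. Without Dox it held 11 and 12. In each of these 3 pairs of groups the WX-02-23 libraries lay below all libraries they were compared with. PladB libraries also held fewer than 12 in part: 11 and 11 in the WT-FOXA1 line and 11 and 8 in the C258A-FOXA1 line. In parental cells they held 12, 11 and 10 at 10 nM and 12, 9 and 12 at 100 nM. The chain was named for its falls, so the counts are a description. In the other direction, the largest difference between the isomers was 7.02 points, at chr19:13044039-13145470. Of its 19 regions, parental WX-02-23 libraries held 19, 19 and 19 and WX-02-43 libraries 19, 18 and 16.

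Of the other chains named for a fall, chr11:129678062-129732027 held 9 and 9 of 10 regions with DMSO and 6 and 5 with WX-02-23 in the WT-FOXA1 line. The chain at chr5:132143051-132219287 held 10 and 11 of 11 with DMSO and 8 and 7 with WX-02-23. PladB libraries of that line held 8 and 7 at the chromosome 11 chain and 8 and 10 at the chromosome 5 chain. At the other end, 3 chains were held in full by all 29 libraries: chr1:155178267-155247588 with 13 regions, chr19:42891012-42954946 with 10 and chr19:51339041-51376709 with 10. Chains with the most regions differed in how much they kept. Over the 127 chains, the number of regions and the mean share in the engineered libraries had a Spearman rho of 0.0652. The chain of 25 regions at chr16:685566-802150 held 21 and 23 with DMSO and 19 and 19 with WX-02-23 in the WT-FOXA1 line. The chain of 22 regions at chr9:140044235-140150117 held 21 and 20 with DMSO and 18 and 16 with WX-02-23 in that line. The chain of 21 regions at chr19:49559192-49668973 held 20 or 21 in every library of the study.

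For Dox, the largest rise was at chr1:207151497-207226964, where 14 and 12 of 16 regions were held without Dox and 15 and 16 with it. WX-02-23 with Dox held 12 and 13 there in the WT-FOXA1 line, and 14 and 16 in the C258A-FOXA1 line. The chain at chr7:1199525-1233866 held 8 and 8 of 10 without Dox, 10 and 9 with it, and 8 and 8 with Dox and WX-02-23. PladB with Dox in the WT-FOXA1 line also held 8 and 8 there, and 13 and 16 at the chromosome 1 chain. Both chains had the DMSO libraries without Dox below those with Dox. The chain with the lowest mean share in the engineered libraries, chr5:167755786-167801860, held 5 and 5 of 10 regions with Dox and DMSO in either engineered line. With WX-02-23 it held 4 and 3 in the WT-FOXA1 line. In parental cells it held 9, 6 and 9 regions with WX-02-23 and 10, 9 and 8 with WX-02-43. Parental PladB libraries held 8, 7 and 7 at 10 nM and 7, 9 and 9 at 100 nM.

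A stricter rule picked out single regions by WX-02-23 in parental cells. Absent from all 3 parental WX-02-23 libraries and present in the 12 other parental libraries were 2 members (0.128%), against 0.234% of all regions. They lay at chr12:716619-716936 and chr1:33228972-33229307, in the chains at chr12:678771-752586 and chr1:33168161-33239298 described above. Both had a peak in both DMSO libraries, with and without Dox, and in both PladB libraries of the WT-FOXA1 line, and in neither of its WX-02-23 libraries. Neither had a peak in a WX-02-23 library of the C258A-FOXA1 line. With DMSO in that line the chromosome 1 region had a peak in both libraries and the chromosome 12 region in 1, and with PladB the counts were 2 and 0. Their strength was moderate, at the 35.6th percentile of the DMSO lists on chromosome 1 and the 37.6th on chromosome 12.

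Among members lost with WX-02-23 in the WT-FOXA1 line, the strongest in the DMSO lists was chr8:145763578-145763989, at the 92.1th percentile. It had a peak in all 15 parental libraries, the 3 with WX-02-23 included, and in 1 of 2 WX-02-23 libraries of C258A-FOXA1 cells. The next, chr20:44477493-44478241 at the 84.5th percentile, had a peak in all 15 parental libraries and in every library of the C258A-FOXA1 line. The region chr19:13101989-13102482, at the 71.9th percentile, had a peak in neither WX-02-23 library of either engineered line and in both libraries of each of their other groups. It also had a peak in all 15 parental libraries, the 3 with WX-02-23 included. The remaining 2 named by the same rule, chr7:2760462-2760959 and chr16:787668-788199, had a peak in all 15 parental libraries and in neither PladB library of the C258A-FOXA1 line. The chromosome 16 region also lacked a peak in both DMSO libraries of that line, so its absence with PladB there is no loss. In the WT-FOXA1 line the chromosome 7 region had a peak in neither PladB library and in neither library without Dox, so its absence there was not particular to WX-02-23.

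Last, the rule was applied to each group's own peaks. It gave 127 chains with parental DMSO, 120 with WX-02-23, 118 with WX-02-43, 110 with PladB at 10 nM and 81 at 100 nM. In the WT-FOXA1 line it gave 135 chains with Dox and DMSO, 63 with WX-02-23, 95 with PladB and 119 without Dox, and in the C258A-FOXA1 line 107 with DMSO, 82 with WX-02-23 and 81 with PladB. Regions common to 2 libraries are easier to reach than regions common to 3, so these numbers compare only within the parental or within the engineered groups. Of the 127 DMSO chains, 68.5% met a WX-02-23 chain of parental cells and 72.5% of the 120 WX-02-23 chains met a DMSO chain. Among the engineered groups, 36.2% of the 127 met a chain of WX-02-23 with Dox in the WT-FOXA1 line, 65.4% one of DMSO with Dox and 61.4% one of DMSO without Dox, and 44.9% met a WX-02-23 chain of the C258A-FOXA1 line. Of these groups' own chains 73.0%, 61.5%, 65.5% and 69.5% met a DMSO chain of parental cells. The no-Dox group gave 119 chains from 57942 common regions and the Dox DMSO group 135 from 72092, while WX-02-23 with Dox gave 63 from 53073.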

How the data were processed

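ATAC-seq libraries were aligned with Bowtie2 and peaks called with MACS2 on build hg19, per the submitters' processing notes. The sources used here give no versions, options or read totals. Every library has its own list. For each peak the authors deposited these columns: the fold over local background (a ratio), −log10 of the p-value, −log10 of the q-value, a score, and the distance to the summit. These values were used only within a list. Peak presence was the one measure compared between libraries.

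Merging, chaining and counting used Python 3.11.15 with numpy 2.4.6, pandas 2.3.3, scipy 1.17.1 and matplotlib 3.10.9. Mitochondrial peaks were left out. bedtools 2.31.1 gave the same 72530 regions, 127 chains and 1565 members, and the scripts were tested on simulated data. Parental DMSO chose the members and entered no test. The 7 contrasts were tested by exact two-sided permutation over libraries with Benjamini-Hochberg adjustment, the difference between the lines over 36 arrangements, and members against other regions by sign flips per library. Replicate numbers did not pair the libraries: deviations of same-numbered libraries correlated at -0.0441 to 0.0256.

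Named were the 10 chains with the most regions, the 5 with the largest fall with WX-02-23 and the 5 with the largest rise with Dox in the WT-FOXA1 line, 3 each way for the isomers, up to 5 held in full by all libraries, and the 3 with the lowest share in engineered libraries. The regions named were up to 5 each of the strongest members absent with WX-02-23 in parental cells or in the WT-FOXA1 line. The text gives those on which a result turns. Members, lists and tests were chosen with earlier results of these data known. Alternatives tried were lists of equal length, at least 50% of a region covered, peaks with a q-value of 1e-05 or below, gaps of 5 and 25 kb, 5 or 20 regions per chain, 4 classes of DMSO strength, a replicate block and leaving out each library. Added after seeing the data were leaving out chromosome 19, the sign-flip results under every alternative and the leave-one-out counts. The planned gene names, motifs and sequences were not analysed here, since no hg19 genome or annotation was used.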

Additional observations from a re-analysis of the deposited data

How the results depend on the processing

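Across 25 results and their alternatives, 28 of 328 recomputed differences changed sign or came to 0, and 30 of 57 recomputed counts stayed within 1.5 times. The excess of members over other regions in the engineered libraries ranged from 6.33 to 14.4 points and passed the threshold throughout. The contrasts between groups and the differences between the lines could not pass 0.05 under any setting, so their p-values say nothing about stability. Where a value below moved, the cause was not tested.

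The rule itself sets the numbers. A gap of 5 kb left 2 chains with 22 regions, and a gap of 25 kb gave 713 chains with 10789. A minimum of 5 regions gave 1453 chains with 9534, and a minimum of 20 gave 5 with 113. The excess of members over other regions, WX-02-23 minus WX-02-43 in parental cells, is near 0 and turned to 0.0793 with 50% covered, 0.4996 with the stricter q-value, 1.17 with lists of equal length, 1.38 and 0.429 with gaps of 5 and 25 kb, and 0.456 and 1.09 with minimums of 5 and 20 regions. The other differences in excess that changed sign were, for PladB 100 against 10 nM, -1.85 with a gap of 5 kb and -0.316 within classes of strength; for PladB in the WT-FOXA1 line, -3.09 with a gap of 5 kb; for PladB in the C258A-FOXA1 line, -0.856 with lists of equal length and -0.172 with 5 regions; and for WX-02-23 in that line, 1.94 with 20 regions. Within classes of strength the parental excess came to -0.542.

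Of the shares held, lists of equal length turned PladB in the WT-FOXA1 line to 1.15 and Dox to -5.65. The share differences came to 0 for the stereoisomers and for PladB in the C258A-FOXA1 line with a gap of 5 kb, and for Dox with 20 regions.

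Leaving out 1 library gave a difference between the lines of -10.7 to -3.96 points, and share differences for PladB in the WT-FOXA1 line of -5.11 to 0.447. It gave differences in excess of -0.477 to 0.298 for the stereoisomers, -0.335 to 0.963 for the parental PladB doses, -0.567 to 3.41 and -0.560 to 1.34 for PladB in the WT-FOXA1 and C258A-FOXA1 lines, and -1.997 to 0.192 for WX-02-23 in the latter. The parental excess lay at 0.590 to 2.19.

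The count of members without WX-02-23 and with WX-02-43 peaks was 14 to 25 when 1 library was left out and 22 with lists of equal length. Its reverse was 1 to 5, 3 with 50% covered and 11 with lists of equal length. The WX-02-23 loss in the WT-FOXA1 line was 119 to 157 members, and 40 with lists of equal length. The Dox gain was 24 to 49, and 8 with lists of equal length. The C258A-FOXA1 loss was 32 to 97, and 41 with 50% covered.

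The replicate number shared between groups did not pair the libraries, and a replicate block cannot move a difference of means in these balanced groups or bring a p below 0.25, so the blocked value (for example -11.05 points for WX-02-23 in the WT-FOXA1 line) carries no information. List length limits what can be seen: a weak region can lack a peak in a short list.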
